A study of Mus musculus with 6 samples.

Results

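The genes of DNA replication and mitosis were examined in kidneys of cisplatin-treated and control mice. The set holds 40 genes, chosen by name, of 19087 in the deposited table, and all 40 were found. Of these, 15 were grouped here under S phase, when DNA is copied, among them the genes that load origins beforehand. The other 25 were grouped under G2 phase and mitosis (G2/M), when chromosomes condense and are separated. RNA was sequenced from 3 kidney samples of wild-type (WT) mice given cisplatin by injection into the peritoneal cavity and from 3 of wild-type control mice. The platinum drug cisplatin, which cross-links DNA, was given to cause acute kidney injury, in a search for what makes mice fed a high-fat diet more prone to such injury. The sources used here do not give the strain, age, sex and diet of the mice, the dose, the time after injection or what the controls received. Whether the 6 samples are 6 animals is not labelled, so a p-value here reflects variation among samples that could in part be technical.

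A cell that is to divide first loads the MCM helicase onto its replication origins with the help of Cdc6 and Cdt1, then opens the origins and copies the DNA with nucleotides made by ribonucleotide reductase and thymidylate synthase. It then raises the mitotic cyclins and their kinase Cdk1, builds the spindle and kinetochores, and finally destroys the cyclins through the anaphase-promoting complex. E2F factors drive the S phase genes, and the MuvB complex with B-Myb and Foxm1 drives the G2/M genes. In the healthy kidney few tubule cells divide, and after tubule injury surviving cells are known to re-enter the cycle. The p53 target p21, encoded by Cdkn1a, restrains it.

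Estimated counts summed to 18523666, 18340853 and 17776018 in cisplatin replicates 1, 2 and 3, and to 17109882, 17351755 and 16725665 in control replicates 1, 2 and 3. Kidney tissue was evident in the abundant proximal tubule genes, of which 7 of 8 fell in cisplatin, and the injury marker Havcr1 rose by 8.51 on the log2 scale (standard error, SE, 0.60; edgeR adjusted p = 0.000126). Among the cisplatin libraries replicate 3 had the least Havcr1, with 420 CPM (counts scaled to a common library size with TMM factors), beside 1060 and 1449 CPM in replicates 1 and 2. The quasi-likelihood test of edgeR, at an adjusted p under 0.05, called 23.1% of 14392 genes higher in cisplatin and 22.2% lower. A result from whole tissue cannot tell fewer cells of a type from less RNA per cell.

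Of the 15 S phase genes 7 rose in cisplatin kidneys and 0 fell. Of the 25 G2/M genes 2 rose and 0 fell, although 22 of 25 had a positive log2 fold change. The median log2 fold change was 0.27 over the S phase genes and 0.42 over the G2/M genes, beside 0.01 over all genes tested. The median SE was 0.17 for S phase genes and 0.32 for G2/M genes, and the difference between the phases was not tested, since genes of a set are not replicates. The share called higher was 46.7% in S phase and 8% in G2/M, on either side of the background of 23.1%. Over both phases, 9 of 40 were higher, 22.5%, which is near that background. None of the 40 was called lower, beside 22.2% of all genes tested. The count of 0 lower was made by edgeR, which had 1 member lower at an unadjusted p under 0.05, and DESeq2 and limma also called 0 lower. DESeq2 called 4 S phase genes higher, not Cdc6, Cdt1 or Mcm2 (DESeq2 adjusted p = 0.0673, 0.0608 and 0.0748), and 3 G2/M genes, Tpx2 besides Top2a and Prc1.

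The count of 9 depended on single libraries. It was 5, 4 and 14 without cisplatin replicate 1, 2 or 3, and 7, 4 and 3 without control replicate 1, 2 or 3. Without cisplatin replicate 2 and control replicate 2 together it was 1, but this pair was chosen after the values were seen. Every cisplatin library lay above every control library for 6 of 15 S phase genes and for 1 of 25 G2/M genes, beside 29.2% of all genes tested. For 1 member, Mcm6, all cisplatin libraries were below all controls, beside 28.4% of all genes.

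**Figure D1:**
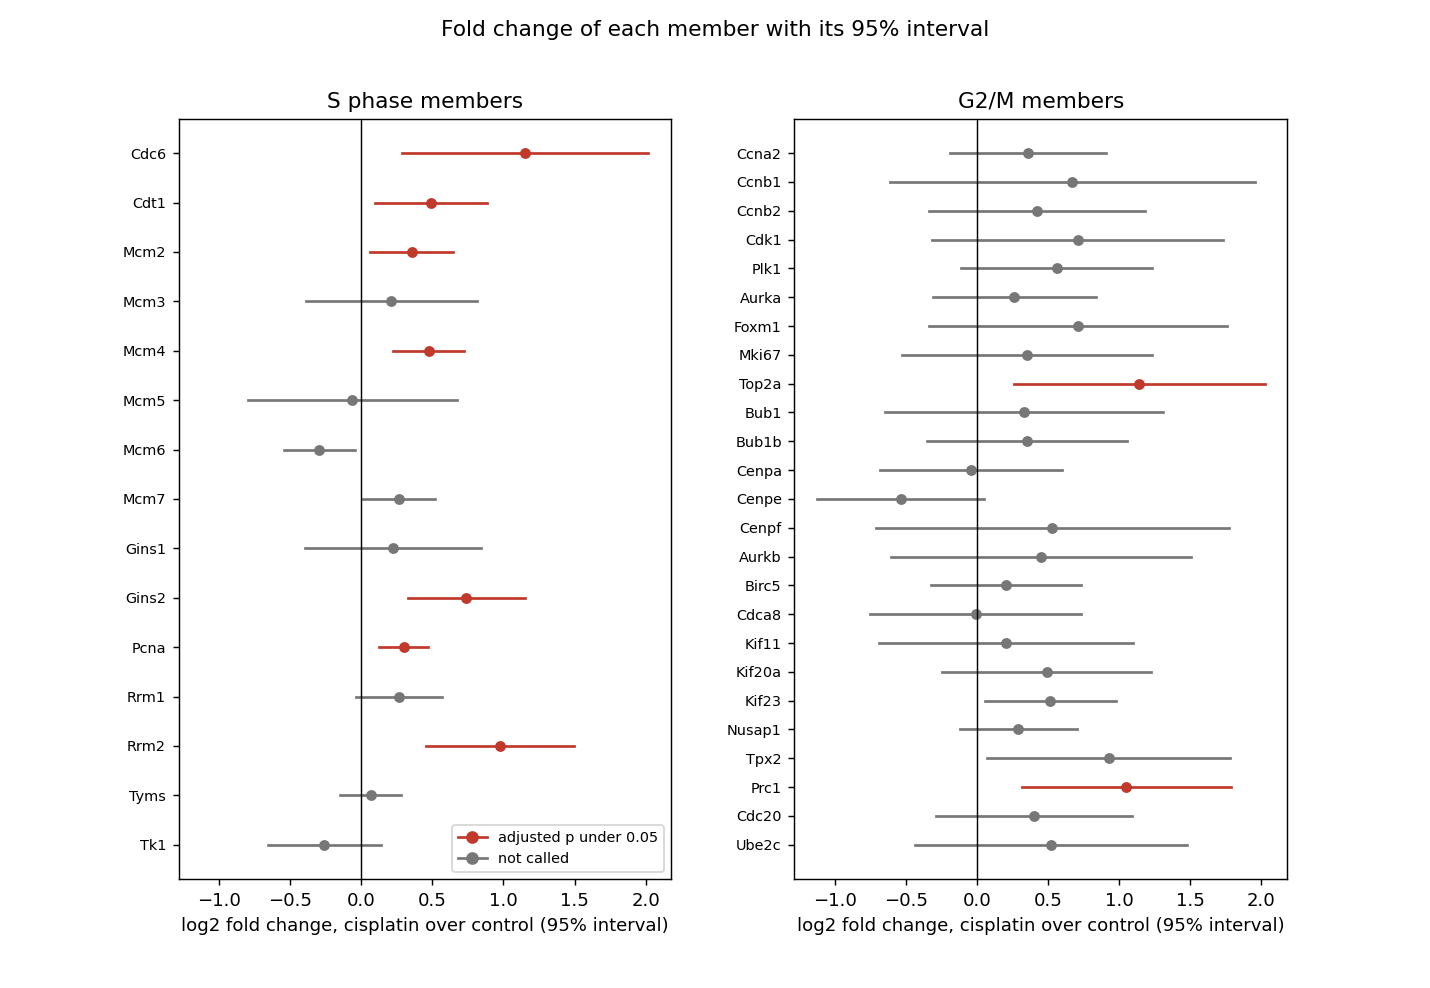
Log2 fold change of each member, cisplatin over control, with its 95% interval (horizontal axis), for S phase genes on the left and G2/M genes on the right. Red marks the 9 genes called at an adjusted p under 0.05, 7 in S phase and 2 in G2/M, and the median half-width of the interval is 0.40 for S phase and 0.74 for G2/M genes.

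Origin licensing came first in order of action, and 4 of its 8 genes rose (50%, beside 23.1% of all genes tested). Cdc6, the ATPase that loads the helicase at origins, had 1.61, 1.42 and 1.07 CPM in cisplatin replicates 1, 2 and 3, against 0.85, 0.31 and 0.68 CPM in control replicates 1, 2 and 3. The groups did not overlap, and control replicate 2 was lowest. Its log2 fold change was 1.15 (SE 0.38, edgeR adjusted p = 0.0361). Cdt1, its partner in loading, had 11.7, 9.78 and 7.78 CPM in cisplatin and 6.84, 7.78 and 6.21 CPM in controls. Cisplatin replicate 3 and control replicate 2 all but met, and the log2 fold change was 0.49 (SE 0.17, edgeR adjusted p = 0.0469).

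The MCM genes encode the 6 subunits of a single ring, and they split. Mcm4 had 12.3, 13.1 and 11.3 CPM in cisplatin and 8.97, 8.82 and 8.63 CPM in controls, well apart (log2 fold change 0.47, SE 0.11, edgeR adjusted p = 0.00800). Mcm2 had 23.2, 26.2 and 19.1 CPM in cisplatin and 16.4, 19.3 and 17.9 CPM in controls (log2 fold change 0.35, SE 0.13, edgeR adjusted p = 0.0497). Here cisplatin replicate 3 fell within the controls. Mcm7, the MCM gene with the highest level per transcript length, had 34.6, 33.4 and 27.6 CPM in cisplatin and 24.4, 29.5 and 25.8 CPM in controls, and was not called (log2 fold change 0.26, 95% interval 0.01 to 0.52, edgeR adjusted p = 0.0849).

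Mcm6 lay on the other side of its controls. It had 17.5, 22.8 and 18.8 CPM in cisplatin, against 23.6, 23.8 and 25.03 CPM in controls, with no overlap, but was not called (log2 fold change -0.29, 95% interval -0.54 to -0.05, edgeR adjusted p = 0.0552). Without cisplatin replicate 2 it was called lower, with a log2 fold change of -0.41 (edgeR adjusted p = 0.00813). Mcm3 and Mcm5 varied most of the S phase genes among the cisplatin libraries, with a highest library 2.16 and 2.66 times the lowest. Mcm5 had 7.67, 11.1 and 4.17 CPM in cisplatin and 7.26, 7.47 and 9.32 CPM in controls, so that cisplatin lay on both sides of the controls. Mcm3 had 8.13, 9.88 and 4.57 CPM in cisplatin and 7.14, 5.88 and 6.52 CPM in controls. It was not called (edgeR adjusted p = 0.537) but was called higher without cisplatin replicate 3 (0.0369).

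**Figure D2:**
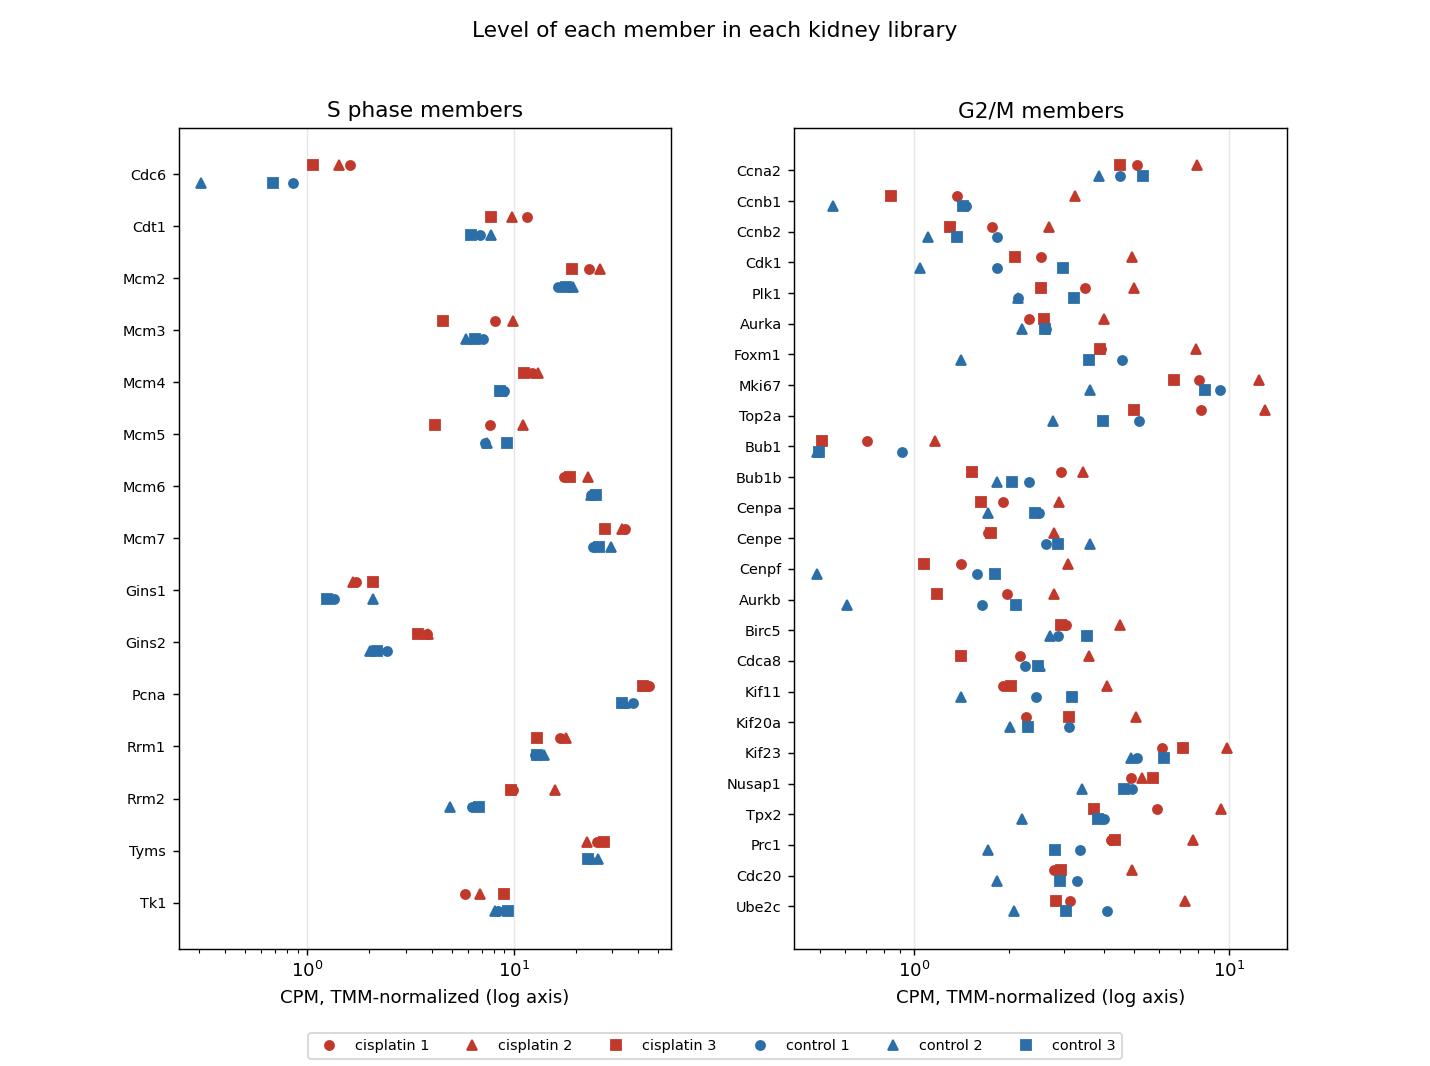
Normalized level (CPM, log axis) of each member in each library, S phase genes on the left and G2/M genes on the right. For each gene the cisplatin libraries (red) are drawn above the control libraries (blue), with a circle, triangle and square for replicates 1, 2 and 3; the red triangle is the highest red point for 24 of 25 G2/M genes and the blue triangle the lowest blue point for 22 of 25.

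Of the replisome genes, 2 of 3 rose (66.7%, beside 23.1% of all genes tested). Pcna, which encodes the sliding clamp of DNA polymerases and is also a p53 target, was the most abundant member, at a mean of 37.6 FPKM (fragments scaled to transcript length and library size) in cisplatin and 27.8 FPKM in controls. It had 45.2, 43.1 and 42.1 CPM in cisplatin, against 37.9, 34.6 and 33.5 CPM in controls. Those libraries lay close together and did not overlap, and the log2 fold change was 0.30 (SE 0.08, edgeR adjusted p = 0.0129). Gins2, a subunit of the GINS complex that activates the helicase, had 3.79, 3.85 and 3.44 CPM in cisplatin and 2.44, 2.02 and 2.17 CPM in controls (log2 fold change 0.74, SE 0.18, edgeR adjusted p = 0.0106). Gins1, of the same complex, was not called, with a log2 fold change of 0.23 and a 95% interval of -0.39 to 0.84.

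Of 4 genes of nucleotide supply, 1 rose, a share of 25%, which is near the 23.1% of all genes tested. Rrm2, the regulated subunit of ribonucleotide reductase, had 9.89, 15.9 and 9.70 CPM in cisplatin, against 6.29, 4.90 and 6.83 CPM in controls. All cisplatin libraries were higher, replicate 2 most of all. Its log2 fold change was 0.98 (SE 0.23, edgeR adjusted p = 0.00888). Its call held in all 16 alternatives, with an adjusted p of at most 0.0390. Rrm1, the partner subunit, had a log2 fold change of 0.27 (95% interval -0.03 to 0.57), and Tyms, thymidylate synthase, of 0.07 (-0.15 to 0.28). Tk1, thymidine kinase of the salvage route, had 5.80, 6.84 and 8.97 CPM in cisplatin and 8.36, 8.08 and 9.38 CPM in controls. Cisplatin replicate 3 was here the highest of its group and lay among the controls. It was not called (log2 fold change -0.26, edgeR adjusted p = 0.255) but was called lower without cisplatin replicate 3 (0.0354).

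Several of these S phase calls rested on single libraries. Those of Mcm4, Gins2 and Rrm2 held without any 1 library, and of these Mcm4 and Gins2 were lost only without both replicates 2 (edgeR adjusted p = 0.0526 and 0.0754). Pcna was lost without cisplatin replicate 1 or control replicate 3 (edgeR adjusted p = 0.0568 and 0.0573). Cdc6 was lost without cisplatin replicate 1 or 2 (0.126 and 0.0698, edgeR adjusted p) or control replicate 2 or 3 (0.0950 and 0.0780). Cdt1 was lost without any single library except cisplatin replicate 3, with edgeR adjusted p-values between 0.0592 and 0.180. Mcm2 likewise was called only without cisplatin replicate 3, and otherwise had edgeR adjusted p-values between 0.06565 and 0.155.

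Among G2/M genes, Top2a and Prc1 rose. Top2a, the topoisomerase that untangles chromosomes before they part, had 8.18, 13.0 and 5.02 CPM in cisplatin and 5.19, 2.75 and 3.98 CPM in controls. Cisplatin replicate 3 fell below control replicate 1. The log2 fold change was 1.14 (SE 0.38, edgeR adjusted p = 0.0419). Prc1, which bundles the microtubules of the central spindle, had 4.24, 7.70 and 4.34 CPM in cisplatin, against 3.36, 1.71 and 2.80 CPM in controls. It was the 1 G2/M gene without overlap between groups (log2 fold change 1.05, SE 0.32, edgeR adjusted p = 0.0281).

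Neither G2/M call held without replicate 2 of either group. Without cisplatin replicate 2 the log2 fold changes of Top2a and Prc1 were 0.73 and 0.71 (edgeR adjusted p = 0.0781 and 0.0663), and without control replicate 2 they were 0.93 and 0.82 (0.121 and 0.0883). Without both they were 0.53 and 0.48 (edgeR adjusted p = 0.181 and 0.142). Both were also lost without control replicate 3 (edgeR adjusted p = 0.109 and 0.0714), and Top2a without cisplatin replicate 1 (0.0818).

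Mki67, the gene of the proliferation antigen Ki-67, had 8.07, 12.5 and 6.71 CPM in cisplatin and 9.40, 3.61 and 8.38 CPM in controls. Cisplatin replicate 2 was the highest and control replicate 2 the lowest, and control replicates 1 and 3 exceeded cisplatin replicates 1 and 3. Its log2 fold change was 0.35, with a 95% interval of -0.53 to 1.23 (edgeR adjusted p = 0.476). Without replicate 2 of both groups it was -0.26.

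The mitotic cyclins and kinases, with Foxm1, gave no call in 7 genes, with a median log2 fold change of 0.56. Ccnb1, cyclin B1, had 1.36, 3.24 and 0.85 CPM in cisplatin, against 1.47, 0.55 and 1.43 CPM in controls (log2 fold change 0.67, 95% interval -0.61 to 1.95, edgeR adjusted p = 0.355). Cdk1, its kinase partner, had 2.52, 4.91 and 2.09 CPM in cisplatin and 1.83, 1.04 and 2.98 CPM in controls (log2 fold change 0.71, 95% interval -0.32 to 1.73, edgeR adjusted p = 0.227). In both, cisplatin replicate 2 was highest and control replicate 2 lowest, with the other 4 libraries between them. Without both replicates 2 the log2 fold changes were -0.38 for Ccnb1 and -0.06 for Cdk1. Ccna2, cyclin A2, was the most abundant of the group per transcript length and had 5.10, 7.95 and 4.51 CPM in cisplatin and 4.52, 3.86 and 5.34 CPM in controls. It had a log2 fold change of 0.36 (95% interval -0.19 to 0.91). Foxm1, the transcription factor of many G2/M genes, had a log2 fold change of 0.71, with a 95% interval of -0.34 to 1.76. Ccnb2, cyclin B2, and the mitotic kinases Plk1 and Aurka had log2 fold changes of 0.42, 0.56 and 0.26 and were not called.

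Kinetochore genes had the lowest median of level in the set, at 0.28 FPKM in cisplatin and 0.37 FPKM in controls, and 0 of 5 were called. Both of these levels are those of a single gene, Cenpe. The median log2 fold change of the group was 0.33, and 3 of 5 genes had a positive one. Cenpa, the histone variant that marks centromeres, had 1.92, 2.89 and 1.64 CPM in cisplatin and 2.502, 1.71 and 2.42 CPM in controls (log2 fold change -0.04, 95% interval -0.68 to 0.60). Cenpe, a kinetochore motor, was the most negative member, with a log2 fold change of -0.54 (95% interval -1.13 to 0.05). It was the 1 G2/M gene for which cisplatin replicate 2 did not exceed every control, and it was called lower without that library (log2 fold change -0.81, edgeR adjusted p = 0.0327). The spindle checkpoint genes Bub1 and Bub1b and the kinetochore gene Cenpf had log2 fold changes of 0.33, 0.35 and 0.53. The chromosomal passenger genes Aurkb, Birc5 and Cdca8, which encode the kinase that corrects chromosome attachment and its partners, had log2 fold changes of 0.45, 0.20 and -0.01. Birc5, survivin, had 3.03, 4.51 and 2.93 CPM in cisplatin and 2.87, 2.69 and 3.54 CPM in controls.

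Kif23, a motor of the central spindle, was the spindle gene with the highest level per transcript length. It had 6.16, 9.88 and 7.16 CPM in cisplatin, against 5.13, 4.90 and 6.21 CPM in controls, with cisplatin replicate 1 inside the controls (log2 fold change 0.52, 95% interval 0.05 to 0.98, edgeR adjusted p = 0.0668). Tpx2, an activator of Aurora A on spindles, had a log2 fold change of 0.93 and an edgeR adjusted p of 0.0739. The spindle motors Kif11 and Kif20a and the microtubule-binding Nusap1 had log2 fold changes of 0.20, 0.49 and 0.29. In the spindle group cisplatin replicate 1 was lowest of its group in 5 of 6 genes, whereas in the cyclin and kinase group replicate 3 was lowest in 6 of 7. Ube2c, the ubiquitin-conjugating enzyme of the anaphase-promoting complex, had 3.13, 7.25 and 2.82 CPM in cisplatin and 4.09, 2.08 and 3.04 CPM in controls (log2 fold change 0.52, 95% interval -0.43 to 1.48). Cdc20, the activator of that complex, had a log2 fold change of 0.40. The groups of cyclins and kinases, kinetochore, passenger complex and anaphase-promoting complex were the 4 G2/M groups without an edgeR call. Pooling their 17 genes thus fixed that count at 0, beside 23.1% higher and 22.2% lower of all genes tested. Of the 17, 0 had an unadjusted edgeR p under 0.05, and DESeq2 and limma on log2(FPKM + 0.1) also called 0. Plk1, of the cyclin and kinase group, was called higher without cisplatin replicate 3 (edgeR adjusted p = 0.0408).

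The G2/M genes varied more between libraries than the S phase genes, in both groups. Within the cisplatin group, replicate 2 was the highest in 24 of 25 G2/M genes, the exception being Nusap1, and in 8 of 15 S phase genes, beside 37.2% of all genes tested. Within the controls, replicate 2 was the lowest in 22 of 25 G2/M genes and in 5 of 15 S phase genes, beside 36.1% of all genes. The median SD of log2 CPM over the 3 libraries was 0.58 in cisplatin and 0.44 in controls for G2/M genes, and 0.23 in cisplatin and 0.14 in controls for S phase genes. Over all genes tested it was 0.14 in cisplatin and 0.12 in controls. G2/M genes were also thinner in counts, with a median mean count of 53.5 against 162 for S phase genes. Counting error alone would give a median SD of 0.18 in cisplatin and 0.23 in controls for G2/M genes, and of 0.10 in cisplatin and 0.12 in controls for S phase genes.

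Relative to the control mean, the median G2/M gene lay at 0.21, 0.92 and -0.01 on the log2 scale in cisplatin replicates 1, 2 and 3, and at 0.31, -0.34 and 0.16 in control replicates 1, 2 and 3. So a control library stood higher than 2 of the 3 cisplatin libraries. The median S phase gene lay at 0.36, 0.48 and 0.17 in cisplatin and at -0.03, -0.02 and -0.02 in controls, with every cisplatin library above every control. Cisplatin replicate 2 exceeded every control library in 24 of 25 G2/M genes, replicate 1 in 5 and replicate 3 in 3. For S phase genes the counts were 11, 10 and 8 of 15 in replicates 2, 1 and 3. Over all genes tested the shares were 41.6%, 41% and 37.7% in cisplatin replicates 2, 1 and 3. Within cisplatin the ratio of the highest to the lowest library was 3.83 for Ccnb1 and 2.59 for Top2a, but 1.07 for Pcna and 1.16 for Mcm4.

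**Figure D3:**
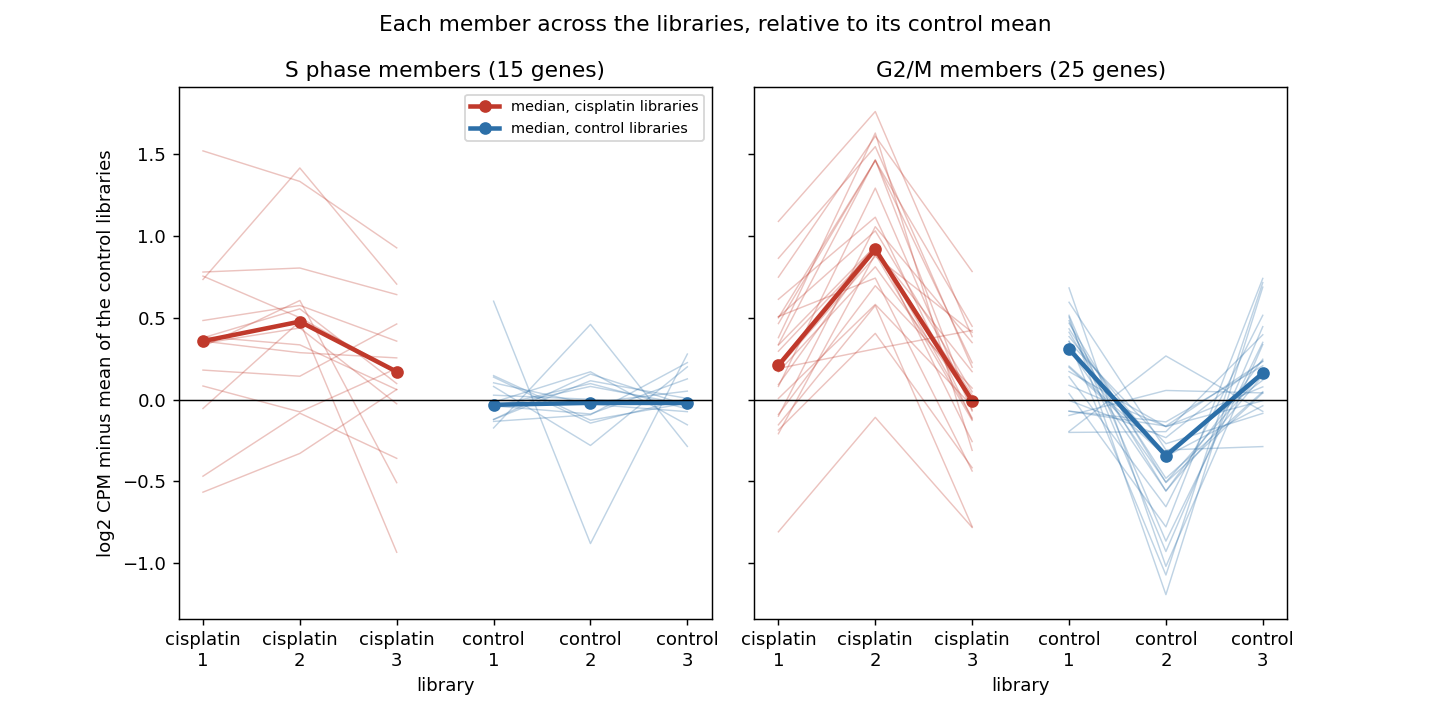
Log2 CPM of each member minus the mean of its control libraries (vertical axis), by library, for S phase genes on the left and G2/M genes on the right. Thin lines join the values of 1 gene within a group and thick lines the medians; the G2/M median reaches 0.92 in cisplatin replicate 2 and -0.34 in control replicate 2, whereas the S phase median stays between 0.17 and 0.48 in cisplatin.

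With libraries left out, the S phase median moved less than the G2/M median. Leaving out any 1 library gave a median log2 fold change between 0.24 and 0.38 for S phase genes and between 0.09 and 0.57 for G2/M genes. The lowest G2/M values came without cisplatin replicate 2 (0.09) and without control replicate 2 (0.25). Without both of these libraries the G2/M median was -0.09 and the S phase median 0.30. That pair was picked after the values were seen. Cisplatin replicate 2 was the highest of its group in 24 of 25 G2/M genes and control replicate 2 the lowest in 22 of 25. The direction of the G2/M change was thus set by the choice, and the contrast with S phase is no separate support. Scaling to library size alone, which raised the median of all genes by 0.14, raised both medians by a like amount, to 0.41 for S phase and 0.56 for G2/M.

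**Figure D4:**
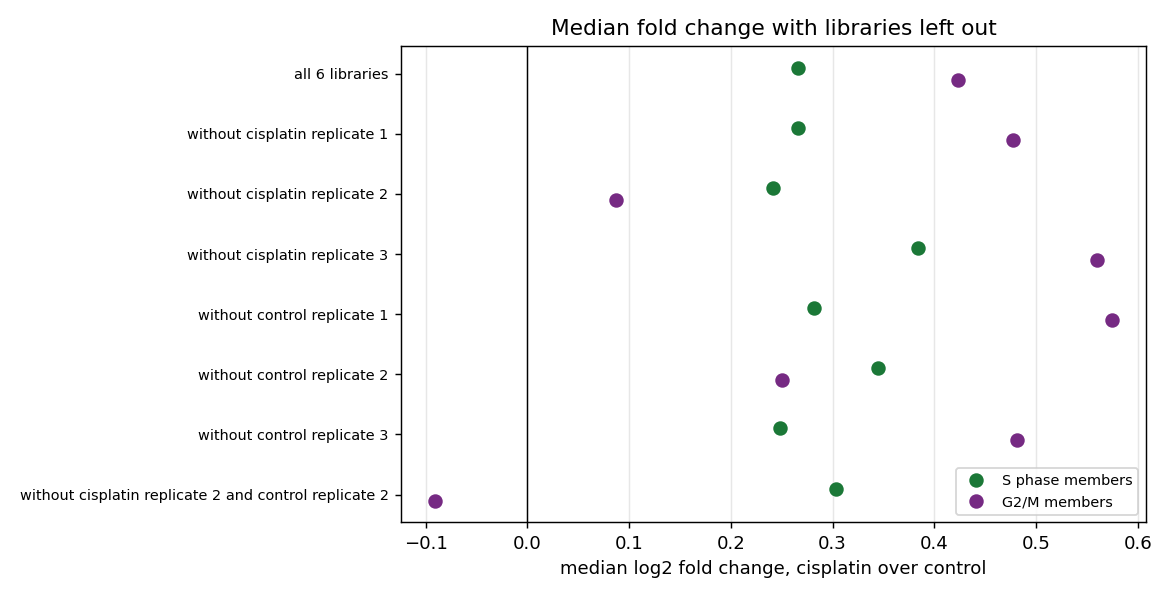
Median log2 fold change, cisplatin over control, of the S phase genes (green) and the G2/M genes (purple) with all 6 libraries and with the named libraries left out. The green points stay between 0.24 and 0.38, and the purple points move between -0.09 and 0.57. The pair of libraries left out together was chosen after the values were seen.

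Promoter sequence was then set beside the phases. The words searched are textbook elements of the promoters of such genes, so high shares among the members were foreseeable. RefSeq windows of 250 bases before to 50 after a start (GRCm38.p6) matched 32 members, 12 of S phase and 20 of G2/M. Both strands were searched for CCAAT, the NF-Y box; for the cell cycle genes homology region (CHR), bound by MuvB complexes, as TTTGAA or TTCGAA; and for an E2F element, as TTTCGCGC, TTTGGCGC, TTTCCCGC or TTTGCCGC. TTCGAA reads the same on both strands, and E2F words on opposite strands can share letters. A CHR word was present in 16 of 20 G2/M genes (80%) and 2 of 12 S phase genes (16.7%), beside 18% of 15007 protein-coding genes of the table. A CCAAT was present in 18 of 20 G2/M genes (90%) and 8 of 12 S phase genes (66.7%), beside 42.2%. An E2F word was present in 6 of 12 S phase genes (50%) and 1 of 20 G2/M genes (5%), beside 3.79%. A match describes letters and does not show that a factor binds there.

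The sequences shown run from 200 bases before to 20 after the start of a RefSeq window, in GRCm38.p6, with every match in capitals. The whole Cdc6 sequence shown lies inside the annotated gene, which begins at base 98907709 of chromosome 11. Cdc6, Mcm5 and Mcm6 show the E2F words of S phase genes, of which Cdc6 rose and Mcm5 and Mcm6 were not called. Of the S phase genes that rose, Cdc6 and Cdt1 held an E2F word and Mcm2, Pcna and Rrm2 did not. Mcm4 and Gins2, which also rose, had no window and were not searched. Top2a and Prc1 are the G2/M genes that were called, and Cdk1 is the 1 G2/M gene with an E2F word.
Cdc6 (chr11:98907951-98908170, plus strand): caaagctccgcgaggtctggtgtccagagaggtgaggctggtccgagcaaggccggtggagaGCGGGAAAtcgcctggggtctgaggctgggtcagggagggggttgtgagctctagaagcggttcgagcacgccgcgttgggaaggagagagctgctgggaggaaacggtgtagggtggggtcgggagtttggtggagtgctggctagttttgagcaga
Mcm5 (chr8:75109309-75109528, plus strand): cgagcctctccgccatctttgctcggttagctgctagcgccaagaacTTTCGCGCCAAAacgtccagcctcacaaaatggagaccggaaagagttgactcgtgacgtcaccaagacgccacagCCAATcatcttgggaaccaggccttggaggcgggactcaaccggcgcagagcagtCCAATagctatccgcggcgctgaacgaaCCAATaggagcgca
Mcm6 (chr1:128359686-128359905, minus strand): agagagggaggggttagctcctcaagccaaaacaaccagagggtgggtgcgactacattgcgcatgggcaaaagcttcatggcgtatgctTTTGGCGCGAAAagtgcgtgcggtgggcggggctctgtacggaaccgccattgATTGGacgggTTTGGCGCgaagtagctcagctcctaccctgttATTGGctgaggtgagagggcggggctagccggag
Top2a (chr11:99024170-99024389, minus strand): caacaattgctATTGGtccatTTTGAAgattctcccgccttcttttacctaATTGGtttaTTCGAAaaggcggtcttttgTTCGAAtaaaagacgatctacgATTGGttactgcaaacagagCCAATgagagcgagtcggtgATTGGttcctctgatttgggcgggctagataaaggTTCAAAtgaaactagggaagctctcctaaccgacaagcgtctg
Prc1 (chr7:80294251-80294470, plus strand): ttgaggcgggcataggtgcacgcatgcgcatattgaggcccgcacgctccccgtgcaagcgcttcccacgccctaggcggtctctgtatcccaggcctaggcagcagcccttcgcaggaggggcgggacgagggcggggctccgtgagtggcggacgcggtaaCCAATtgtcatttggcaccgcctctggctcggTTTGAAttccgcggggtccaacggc
Cdk1 (chr10:69352893-69353112, minus strand): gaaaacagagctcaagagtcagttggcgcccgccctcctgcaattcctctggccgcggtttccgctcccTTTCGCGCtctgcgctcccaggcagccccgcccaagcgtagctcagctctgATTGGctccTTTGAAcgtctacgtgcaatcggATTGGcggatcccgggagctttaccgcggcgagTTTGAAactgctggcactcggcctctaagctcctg
In Cdc6 the capitals are a single E2F word read on the opposite strand. Mcm5 and Mcm6 each hold a pair of overlapping E2F words facing each other, Mcm6 a further one, and both hold CCAAT boxes. Top2a holds 5 CCAAT boxes and 4 CHR words. In Prc1 and Cdk1 a TTTGAA lies across or just before the start, with CCAAT upstream of it.

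**Figure D5:**
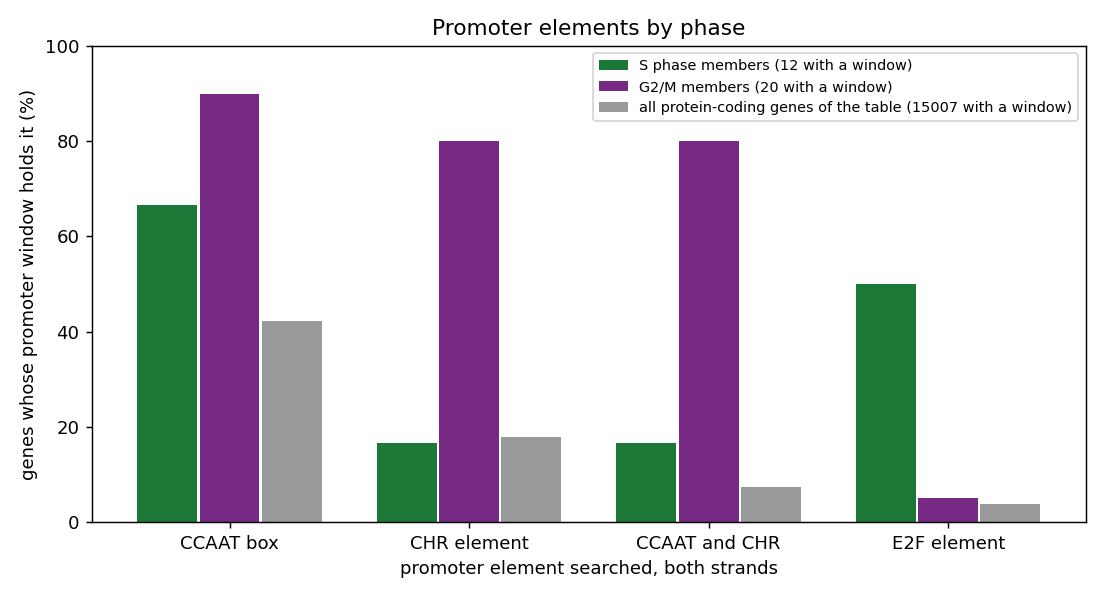
Share of genes whose promoter window holds each element (vertical axis, percent), for the 12 S phase genes and 20 G2/M genes with a window and for all 15007 protein-coding genes of the table with one. The CHR element was found in 80% of G2/M genes and the E2F element in 50% of S phase genes.

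Other genes of the same pathways did not all follow the members. Of 37 further replication genes, 4 rose and 6 fell (3 fell with scaling to library size alone), with a median log2 fold change of 0.01. These are 10.8% higher and 16.2% lower, beside 23.1% and 22.2% of all genes tested. Uhrf1, which recruits DNA methyltransferase to new DNA, had 6.41, 9.73 and 4.17 CPM in cisplatin and 2.99, 1.90 and 2.67 CPM in controls (log2 fold change 1.43, SE 0.33, edgeR adjusted p = 0.00932). Pold1, the catalytic subunit of DNA polymerase delta, rose by 0.65 on the log2 scale (edgeR adjusted p = 0.01005), a call lost without both replicates 2 (0.0596). Prim2, a primase subunit, had 2.42, 3.55 and 2.82 CPM in cisplatin, against 7.26, 7.78 and 7.58 CPM in controls (log2 fold change -1.36, SE 0.17, edgeR adjusted p = 0.000514). Every cisplatin library lay far below the controls.

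Of 44 further mitosis genes, 40 were tested, 9 rose and 0 fell by edgeR (0 at an unadjusted p under 0.05 and 0 by DESeq2 and limma), with a median log2 fold change of 0.48. The 22.5% called higher is near the 23.1% of all genes. As with the members, cisplatin replicate 2 was highest in 33 of 40 and control replicate 2 lowest in 29 of 40. The count of 9 was 5, 4 and 14 without cisplatin replicate 1, 2 or 3 and 5 and 4 without control replicate 1 or 2. Ckap2, a spindle protein, had 10.8, 11.3 and 6.99 CPM in cisplatin and 1.71, 0.61 and 0.87 CPM in controls (log2 fold change 3.18, SE 0.34, edgeR adjusted p = 0.000304). Among the 40 members the highest log2 fold change was 1.15, of Cdc6, which had only 14, 5 and 11 counts in control replicates 1, 2 and 3. Kif18b, a kinesin of spindle microtubules, had a log2 fold change of 1.80 (edgeR adjusted p = 0.0288), and this call was lost without any 1 library except cisplatin replicate 3 (0.0551 to 0.0769).

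Of 24 regulators of cell cycle transcription, 5 were higher and 6 lower (10 higher and 3 lower with scaling to library size alone). Those shares, 20.8% and 25%, are near the 23.1% and 22.2% of all genes. Leaving out cisplatin replicate 1 or 3 gave 3 and 8 higher, control replicate 2 gave 3 higher, and control replicate 1 gave 3 lower. Cdkn1a had 755, 888 and 670 CPM in cisplatin, against 6.96, 10.04 and 10.1 CPM in controls (log2 fold change 6.41, SE 0.20, edgeR adjusted p = 5.69e-07). Trp53, which encodes p53, rose by 0.78 on the log2 scale (SE 0.11, edgeR adjusted p = 0.000690). Nfyc, a subunit of the CCAAT-binding factor NF-Y, fell by 0.63, and Tfdp2, a partner of E2F factors, fell by 0.46 on the log2 scale (edgeR adjusted p = 0.000330 and 0.00213).

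Several markers of injury and of other cell types moved between the libraries too. Summed tubule injury markers (5 of 5 higher) had 1931, 2422 and 841 CPM in cisplatin replicates 1, 2 and 3, and 21.0 to 29.8 CPM in controls. Replicates 2, 1 and 3 stood in the same order for the median G2/M gene and for the median S phase gene. Fibroblast and pericyte markers (3 of 5 higher) gave 504, 561 and 374 CPM in cisplatin and 345, 303 and 364 CPM in controls, and macrophage markers (3 of 8 higher, 2 lower) 254, 272 and 232 CPM in cisplatin and 206, 181 and 239 CPM in controls. In both lists replicate 2 was highest in cisplatin and lowest in controls. T and NK cell markers (4 of 5 tested lower) gave 4.34 to 5.53 CPM in cisplatin and 14.95, 9.001 and 21.6 CPM in controls, again lowest in control replicate 2. Proximal tubule markers (7 of 8 lower) gave 4264, 3044 and 6394 CPM in cisplatin, lowest in replicate 2, and 15440 to 15780 CPM in controls. Erythroid precursor markers (4 of 5 tested lower) gave 65.7, 70.9 and 68.7 CPM in cisplatin and 139, 104 and 113 CPM in controls. There too replicate 2 was highest in cisplatin and lowest in controls. B cell markers (1 of 2 tested lower, Ms4a1 at 0 in cisplatin) ranged from 0.96 to 1.62 CPM in cisplatin and 2.24 to 4.46 CPM in controls. Neutrophil markers (3 of 4 tested higher) ranged from 6.51 to 7.75 CPM in cisplatin and 2.93 to 4.35 CPM in controls, and endothelial markers (5 of 5 lower) from 231 to 271 CPM in cisplatin and 346 to 351 CPM in controls. For the B cell, neutrophil and endothelial sums replicate 2 was highest in cisplatin but not lowest in controls. The part of any of these markers in the G2/M values was not tested. Apart from Ms4a1 in cisplatin, no listed marker was at 0 across a group.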

How the data were processed

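Per the submitters' processing notes, reads were aligned with HISAT to GRCm38.p6. Its version, the annotation, the counting tool and the use of strand are not given. The authors deposited, per the file headers, estimated counts, FPKM and TPM per gene for each of 6 libraries. Of the estimated counts deposited, 66.2% to 67.7% per library were exactly whole, with no tolerance. The FPKM deposited by the authors are scaled to transcript length and library size. The TPM deposited by the authors entered no test. The names of the control columns (w, c and a replicate number) were taken to mean wild-type controls.

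Estimated counts were rounded, filtered with filterByExpr (minimum count 10, leaving 14392 of 19087 genes), scaled by TMM factors and tested with the robust quasi-likelihood F test of edgeR 4.0.16 (R 4.3.3; two-sided; group as the only term; Benjamini-Hochberg over all genes tested; called at an adjusted p under 0.05). All 40 members passed the filter, with counts from 5 to 896 per library. The SE is the log2 fold change divided by the root of F, and intervals use its degrees of freedom. CPM are TMM-normalized, and the SD of log2 CPM used a prior count of 0.5. DESeq2 1.42.0 and limma 3.58.1 on log2(FPKM + 0.1) were alternatives. The test was checked on simulated data. Replicate libraries differed by at least 8.30 times sampling variance, so none was a copy. Floors of 3 counts were 0.162 to 0.179 CPM, below every member.

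Members, gene lists and tests were chosen with earlier results of these data known. All members may be named; every library is given for called members, for the most expressed member of each role, for Mki67, Pcna, Ccnb1 and Cdk1, and, chosen after their values were seen, for Mcm3, Mcm5 and Mcm6. Of each further list, the up to 2 called genes with the largest change in each direction are named, except 1 that is not reported here. Of the members, 14 overlap another RefSeq gene (among them Mcm7, Gins2, Tk1, Ccna2, Top2a, Prc1, Tpx2, Cdc20 and Aurka), and reads of such pairs may not be fully separated.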

Additional observations from a re-analysis of the deposited data

How the results depend on the processing

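Under 15 other settings, and 1 more chosen after seeing the data that left out replicate 2 of both groups, no named gene changed sign while called. The count of members higher (9) was 4 with limma on unfiltered log2(FPKM + 0.1), 3 to 14 with 1 library left out, and 1 without replicate 2 of both groups. The count of members lower (0) was 1 with DESeq2's size factors in edgeR, 0 to 2 with 1 library left out and 1 without both replicates 2. With 1 library left out the S phase median was 0.24 to 0.38 and the G2/M median 0.09 to 0.57, and without both replicates 2 the G2/M median was -0.0905. Further replication genes lower (6) were 3 with scaling to library size and in all 3 limma fits, and 5 to 6 with 1 library left out. Those higher (4) were 4 to 5 with 1 library left out and 2 without both replicates 2. Further mitosis genes higher (9) were 4 to 14 with 1 library left out and 4 without both replicates 2, and those lower 0 to 1. Regulators higher (5) were 10 with scaling to library size, 8 with limma on log2(FPKM + 1), 3 to 8 with 1 library left out and 3 without both replicates 2. Those lower (6) were 3 with scaling to library size and in the limma fits, and 3 to 6 with 1 library left out. The cause was not tested.

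Samples with the same replicate number did not deviate together (correlations 0.0376, -0.129 and -0.115 over 14392 genes). Between different numbers the correlations ran from -0.033 to 0.139. These values gave no sign that the numbers pair the samples, but 3 libraries per group cannot exclude a pairing. With the replicate block, 4 members, all of S phase, and 4 further mitosis genes were called higher. The calls of Cdc6, Cdt1, Mcm2, Top2a and Prc1 ended, which left 0 of the 25 G2/M genes called.

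Of the 40 members, 36 had 10 or more counts in every library, and the lowest count was 5, of Cdc6 in control replicate 2.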
